A study of Homo sapiens with 12 samples.

Results

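The 29 genes described here make, sense, take up, store or export cholesterol, and they were followed through TTK knockdown in SCC-15 and CAL-27, established lines of human oral squamous cell carcinoma. They were taken from the table by gene name and not by a threshold on measured values. The list was, however, chosen with earlier results of these data known. The enzymes are 7 of the mevalonate and isoprenoid steps and 11 of the squalene and sterol steps. The other members are 4 genes of the SREBP system, 5 of uptake, transport and storage, and 2 of efflux. Each of the 29 symbols matched 1 of the 58735 lines of the deposited gene table. All 29 passed the filter on low counts, within the 16946 genes tested. ACAT2 and ABCA1 passed it only through their CAL-27 libraries, with at most 15 counts of either in any SCC-15 library. Polyadenylated RNA was sequenced in 3 libraries for each of 4 groups, which were SCC-15 shTTK, SCC-15 shControl, CAL-27 shTTK and CAL-27 shControl. TTK is a protein kinase of the mitotic spindle checkpoint. The shTTK cells carry a short hairpin RNA against it, while the labels give the control cells as shControl and also as untreated wild type, which leaves unclear if they carry a control hairpin. The sources used here do not give the number of hairpins or say if a knockdown line is 1 clone or a pool. Nothing states that the libraries of a group came from separate cultures, so the p-values cover only the spread among these libraries, and that spread may be technical.

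Cells build cholesterol from acetyl-CoA through mevalonate, farnesyl diphosphate, squalene and lanosterol. When sterols in the endoplasmic reticulum are scarce, SCAP escorts the SREBP precursors to the Golgi, where proteases release the part that enters the nucleus and turns on the genes of synthesis and uptake; when sterols are plentiful, INSIG proteins hold SCAP back. Oxysterols instead activate the nuclear receptors LXR, whose targets ABCA1 and ABCG1 export cholesterol and whose target MYLIP marks lipoprotein receptors for degradation. Beside TTK, the title of the series mentions mTORC1 and NF-kB.

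The targeted gene was lower in the shTTK libraries of both lines. TTK stood at 26.9, 29.2 and 34.3 CPM in SCC-15 shTTK libraries, against 67.5, 69.4 and 72.9 CPM in SCC-15 shControl libraries, where CPM is the count scaled to the size of the library (TMM scaling). In CAL-27 it stood at 35.6, 32.5 and 33.5 CPM in shTTK libraries, against 46.4, 48.4 and 53.4 CPM in shControl libraries. The knockdown left 43.1% of the control mean in SCC-15 and 68.6% in CAL-27. Total counts per library ranged from 16176655 to 18484112. The SCC-15 libraries numbered 1 stood apart by the mean chi-square per gene against the other libraries of their group. It was 3.07 and 3.78 in shTTK and 5.62 and 5.96 in shControl. Libraries 2 and 3 differed by 1.95 in shTTK and 1.98 in shControl, and pairs of CAL-27 libraries by 2.37 to 2.89. The median chi-square over its expected value was 2.19 and 2.63 for library 1 of SCC-15 shTTK. For library 1 of SCC-15 shControl it was 1.92 and 2.11, against 1.93 to 2.14 for CAL-27 pairs. Of the cell type markers, 9 squamous epithelial genes summed to 8150 to 8178 CPM in SCC-15 shTTK, 8488 to 8846 CPM in SCC-15 shControl, 4879 to 4937 CPM in CAL-27 shTTK and 2889 to 3032 CPM in CAL-27 shControl libraries. All 5 leukocyte markers were under 1 CPM in each group, with 1 to 3 of them at 0, and 6 fibroblast markers summed to 20.6 to 22.7 CPM in SCC-15 shTTK, 21.1 to 23.0 CPM in SCC-15 shControl, 41.2 to 42.1 CPM in CAL-27 shTTK and 31.9 to 37.6 CPM in CAL-27 shControl. The 3 endothelial markers summed to 1.52 to 2.25 CPM in SCC-15 shTTK, 1.47 to 1.95 CPM in SCC-15 shControl, 72.4 to 74.3 CPM in CAL-27 shTTK and 102 to 110 CPM in CAL-27 shControl, and in CAL-27 nearly all of the sum was CDH5. Mitochondrial genes took 2.35% to 2.69% of counts in SCC-15 shTTK, 2.94% to 3.86% in SCC-15 shControl, 4.47% to 4.68% in CAL-27 shTTK and 4.24% to 4.32% in CAL-27 shControl. The squamous sum and the mitochondrial share separated shTTK from shControl libraries in both lines, as the fibroblast and endothelial sums did in CAL-27, and their part in the results was not tested. Single squamous markers moved both ways within a line. In SCC-15, KRT14 averaged 370 CPM in shTTK and 763 CPM in shControl, but DSP 1266 and 1113 CPM. In CAL-27, KRT5 averaged 1924 CPM in shTTK and 886 CPM in shControl, but EPCAM 228 and 277 CPM.

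Promoters of 25 of the 29 members were found in the RefSeq promoter table (GRCh38.p14), which gives 250 bases before and 50 after each start. The 4 not found are ACAT2, FDFT1, SQLE and ABCG1. Shown are HMGCS1 and MSMO1, the synthesis genes that fell most in SCC-15 and CAL-27, INSIG1 and SREBF2 of the SREBP system, and ABCA1 of the efflux arm. Capitals mark matches on either strand to the sterol element TCACNCCAC bound by SREBP, to the box CCAAT bound by NF-Y (ATTGG on the other strand), and to the palindrome CACGTG.
HMGCS1, chr5:43313363-43313662, minus strand: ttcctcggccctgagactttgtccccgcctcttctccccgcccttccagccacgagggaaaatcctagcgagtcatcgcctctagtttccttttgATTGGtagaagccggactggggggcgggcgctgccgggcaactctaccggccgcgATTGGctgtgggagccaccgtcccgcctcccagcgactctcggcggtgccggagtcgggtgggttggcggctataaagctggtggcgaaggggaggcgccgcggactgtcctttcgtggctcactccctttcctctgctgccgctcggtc
MSMO1, chr4:165327419-165327718, plus strand: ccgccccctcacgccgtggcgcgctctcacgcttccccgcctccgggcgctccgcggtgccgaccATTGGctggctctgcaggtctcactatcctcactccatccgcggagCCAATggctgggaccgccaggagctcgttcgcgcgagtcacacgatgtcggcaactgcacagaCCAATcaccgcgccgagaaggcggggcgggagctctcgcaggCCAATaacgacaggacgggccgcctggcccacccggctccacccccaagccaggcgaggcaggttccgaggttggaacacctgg
INSIG1, chr7:155297628-155297927, plus strand: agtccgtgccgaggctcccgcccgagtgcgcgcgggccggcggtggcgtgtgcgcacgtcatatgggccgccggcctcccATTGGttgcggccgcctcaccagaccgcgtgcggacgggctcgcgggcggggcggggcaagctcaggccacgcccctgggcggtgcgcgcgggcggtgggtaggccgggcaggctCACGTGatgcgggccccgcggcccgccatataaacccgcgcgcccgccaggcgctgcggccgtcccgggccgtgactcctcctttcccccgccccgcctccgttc
SREBF2, chr22:41832855-41833154, plus strand: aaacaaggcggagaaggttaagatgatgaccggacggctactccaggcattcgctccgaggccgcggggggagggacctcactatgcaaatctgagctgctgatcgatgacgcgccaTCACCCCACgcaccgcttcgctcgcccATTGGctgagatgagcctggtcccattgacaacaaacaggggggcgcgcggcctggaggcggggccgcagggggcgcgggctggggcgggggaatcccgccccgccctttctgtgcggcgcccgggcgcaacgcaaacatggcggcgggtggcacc
ABCA1, chr9:104928106-104928405, minus strand: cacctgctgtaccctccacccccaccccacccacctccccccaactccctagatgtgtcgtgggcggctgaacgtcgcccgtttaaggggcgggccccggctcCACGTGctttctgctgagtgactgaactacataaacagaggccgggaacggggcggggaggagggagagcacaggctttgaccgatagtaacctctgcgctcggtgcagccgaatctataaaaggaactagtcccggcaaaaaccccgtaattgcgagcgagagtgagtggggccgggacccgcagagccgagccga
The MSMO1 window holds 4 CCAAT matches, HMGCS1 holds 2, and INSIG1 and SREBF2 hold 1 each. In ABCA1 no CCAAT match was found. A CCAAT match lies in the first listed window of 18 of the 25 members (72%), against 35.7% of the first windows of all genes in the table. The element TCACNCCAC occurs in SREBF2 alone among the 25 members and in 1.13% of all 35116 windows, and CACGTG in 5 of the 25 members and 7.26% of all windows. GGGCGG, searched as a GC box, lies in 24 of the 25 members and 45.0% of all windows. A pair of AGGTCA in the same direction, spaced by 4 bases, was searched as an LXR repeat. It matched 0 of the 25 members and 0.0199% of all windows. Only these exact letters were searched, so sites that vary from them were not counted. A count of 0 therefore does not show that a site is absent. Both strands were searched and no motif contains another. A match describes the letters in the window and not binding.

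In CAL-27, TTK knockdown went with lower RNA of nearly the whole synthesis pathway and with higher RNA of both efflux transporters. Of the 29 members, 23 were called lower, 2 higher and 4 neither way (edgeR quasi-likelihood test, Benjamini-Hochberg adjusted p under 0.05 over all tested genes). Of all tested genes, 15.7% were called lower and 11.6% higher, 27.3% in all. The median log2 fold change was -0.36 over the members and -0.01 over all tested genes, and it was -0.44 over the 18 enzymes. Summed over the 18 enzymes of synthesis, the level was 1631 ± 37.9 CPM in shTTK libraries and 2341 ± 19.7 CPM in shControl libraries (SD, n = 3 each). In bulk RNA, fewer cells of a kind and less RNA per cell cannot be told apart.

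Among the mevalonate enzymes of CAL-27, 6 of 7 fell. HMGCS1, the cytosolic HMG-CoA synthase, stood at 83.6, 76.1 and 87.4 CPM in shTTK libraries, against 136, 135 and 129 CPM in shControl libraries. The groups lay well apart, and the log2 fold change was -0.70 ± 0.0493 (SE; edgeR adjusted p = 7.94e-18). IDI1, the isomerase that supplies dimethylallyl diphosphate, averaged 43.5 ± 1.05 CPM in shTTK and 63.9 ± 4.12 CPM in shControl libraries (SD, n = 3 each), a log2 fold change of -0.56. Mevalonate kinase, MVK, fell by a similar amount (-0.49). The decreases were smaller for ACAT2, the cytosolic acetoacetyl-CoA thiolase (-0.39), for MVD, which decarboxylates mevalonate diphosphate (-0.36), and for FDPS, farnesyl diphosphate synthase (-0.30). The largest edgeR adjusted p among these 6 was 3.47e-08. PMVK, which phosphorylates mevalonate phosphate, was not called: it averaged 11.5 ± 0.392 CPM in shTTK and 10.8 ± 0.197 CPM in shControl libraries (SD, n = 3 each; edgeR adjusted p = 0.579).

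Of the squalene and sterol enzymes in CAL-27, 10 of 11 fell. MSMO1, the methyl sterol oxidase, had the lowest fold change of all members: 43.8, 43.8 and 52.2 CPM in shTTK libraries, against 80.5, 81.2 and 81.0 CPM in shControl libraries, a log2 fold change of -0.79 ± 0.0614 (edgeR adjusted p = 2.38e-18). SQLE, squalene epoxidase, stood at 83.9, 73.3 and 79.6 CPM in shTTK libraries, against 136, 131 and 132 CPM in shControl libraries (-0.75 ± 0.0458; edgeR adjusted p = 5.99e-24). In both genes the highest shTTK library stayed well under the lowest control. The abundant enzymes shifted as well. FDFT1, squalene synthase, stood at 309.5, 312 and 323 CPM in shTTK libraries, against 474, 463 and 456 CPM in shControl libraries (-0.56 ± 0.0315; edgeR adjusted p = 8.73e-26). DHCR7, the reductase that makes cholesterol from its dehydro precursor, stood at 305, 299 and 332 CPM in shTTK libraries, against 458, 465 and 458 CPM in shControl libraries (-0.56 ± 0.0349; edgeR adjusted p = 3.52e-22). The control libraries of each gene sat close together, and neither gene's groups overlapped.

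LSS, which folds squalene epoxide into lanosterol, also fell in CAL-27 (log2 fold change -0.59), with 212 ± 7.82 CPM in shTTK and 321 ± 7.11 CPM in shControl libraries (SD, n = 3 each). HSD17B7, the keto reductase of sterol demethylation, had a log2 fold change of -0.47. The changes of SC5D, the lathosterol desaturase (-0.39), NSDHL, a dehydrogenase of sterol demethylation (-0.35), and EBP, the sterol isomerase (-0.35), were alike in size. The largest edgeR adjusted p among LSS, HSD17B7, SC5D, NSDHL and EBP was 0.000173. CYP51A1, the lanosterol demethylase, averaged 8.48 ± 0.319 CPM in shTTK and 11.2 ± 1.27 CPM in shControl libraries (SD, n = 3 each), a log2 fold change of -0.40 (edgeR adjusted p = 0.0139). Its call was lost without shTTK library 1 (adjusted p = 0.0721), control library 1 (0.0676) or control library 2 (0.0895). CYP51A1 shares 79.3% of its annotated exon bases with AC000120.2 on the same strand, a line with 0 counts, so its counts are uncertain. TM7SF2, a sterol reductase, was not called, at 26.4 ± 1.14 CPM in shTTK and 24.7 ± 1.08 CPM in shControl libraries (SD, n = 3 each; edgeR adjusted p = 0.479).

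**Figure D1:**
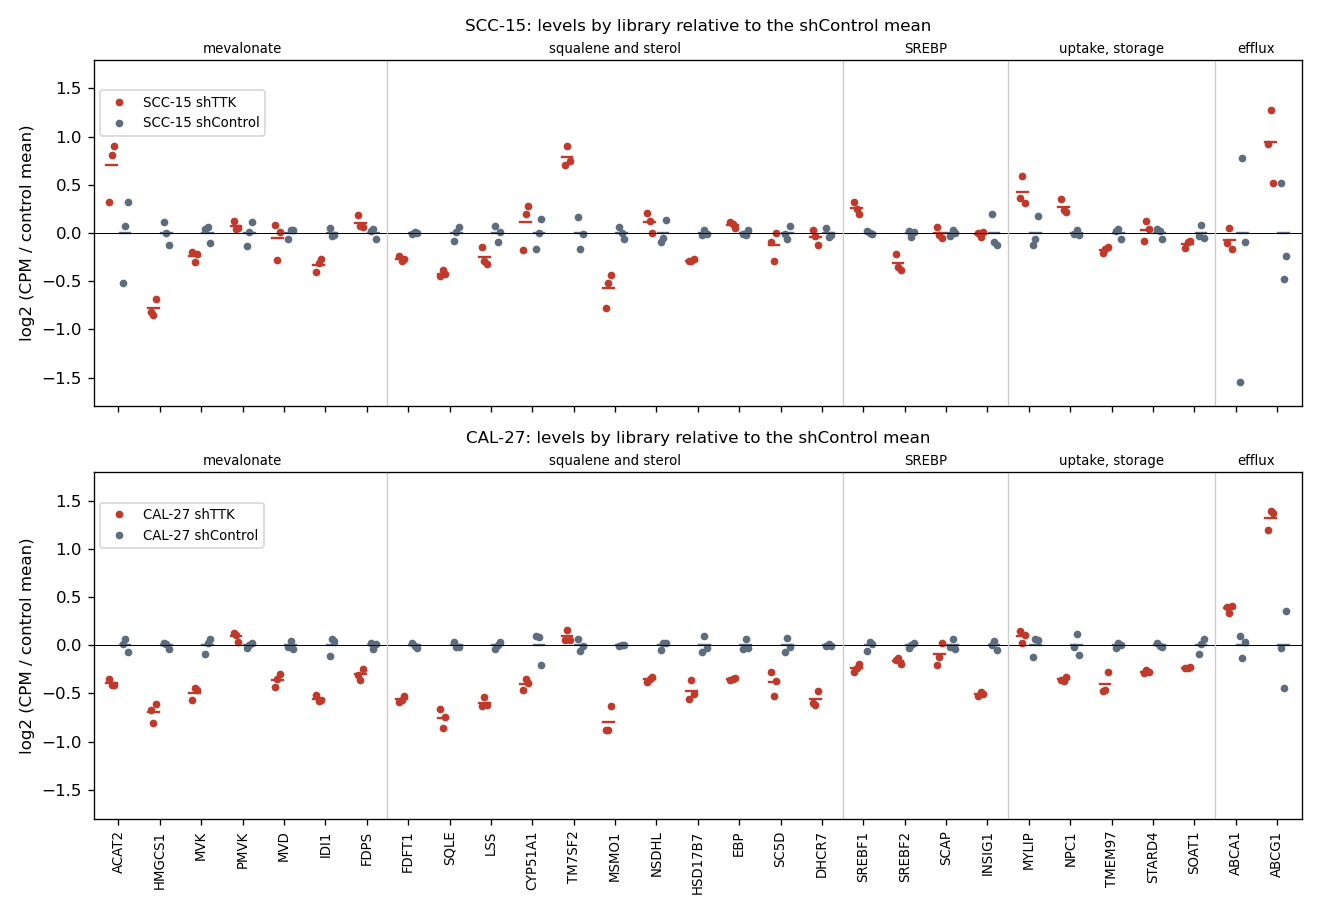
Level of the 29 members in each library as log2 of its CPM over the mean of the 3 shControl libraries of the line, SCC-15 above and CAL-27 below, with points for libraries, short lines for group means and members in pathway order. In CAL-27 the shTTK points of most members lie under 0, down to MSMO1, while in SCC-15 SREBF1, NPC1 and TM7SF2 lie above 0.

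Of the 4 SREBP genes, 3 fell in CAL-27, INSIG1 by the most. INSIG1, itself turned on by SREBP, stood at 115, 117 and 116 CPM in shTTK libraries, against 165, 169 and 159 CPM in shControl libraries (-0.50 ± 0.0482; edgeR adjusted p = 8.16e-11). SREBF1, which encodes the SREBP form tied mainly to fatty acid synthesis, stood at 383, 393 and 406 CPM in shTTK libraries, against 445, 475 and 469 CPM in shControl libraries (-0.23 ± 0.0314; edgeR adjusted p = 4.53e-09). The groups did not overlap for either gene. SREBF2, which encodes the form tied mainly to cholesterol synthesis, fell by a smaller amount, with 439.9 ± 10.8 CPM in shTTK and 491 ± 8.0 CPM in shControl libraries (SD, n = 3 each; log2 fold change -0.16; edgeR adjusted p = 6.83e-05). SCAP was not called (log2 fold change -0.10; edgeR adjusted p = 0.148), but passed the threshold without shTTK library 3 (adjusted p = 0.0424).

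Of the 5 genes of uptake, transport and storage, 4 fell in CAL-27. TMEM97, an endoplasmic reticulum protein that binds NPC1, changed by -0.40 on the log2 scale, with 30.8 ± 2.45 CPM in shTTK and 40.7 ± 0.861 CPM in shControl libraries (SD, n = 3 each). NPC1, which lets cholesterol out of late endosomes, stood at 69.1, 68.8 and 70.9 CPM in shTTK libraries, against 87.4, 96.2 and 82.7 CPM in shControl libraries (log2 fold change -0.35). STARD4, a cytosolic sterol carrier (-0.27), and SOAT1, which esterifies cholesterol for storage (-0.23), fell less. The largest edgeR adjusted p of the 4 was 1.5e-05. MYLIP was not called (23.3 ± 1.08 CPM in shTTK and 21.9 ± 1.57 CPM in shControl libraries, SD, n = 3 each; edgeR adjusted p = 0.490).

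Both efflux transporters, present at low levels, rose in CAL-27. ABCG1, which passes cholesterol to high-density lipoprotein, stood at 7.20, 8.22 and 8.12 CPM in shTTK libraries, against 3.09, 2.30 and 4.03 CPM in shControl libraries, and each shTTK library exceeded each control. The log2 fold change of 1.33 ± 0.196 was the largest increase among the members (edgeR adjusted p = 7.15e-08). ABCA1, which loads cholesterol onto lipid-poor apolipoprotein, stood at 12.8, 12.2 and 12.9 CPM in shTTK libraries, against 10.4, 8.83 and 9.91 CPM in shControl libraries (0.38 ± 0.139; edgeR adjusted p = 0.0304). The call of ABCA1 lay near the threshold. It was lost without any 1 of the 3 shTTK libraries (edgeR adjusted p = 0.0707, 0.0610 and 0.0726). It was also lost without control library 2 (0.126) or 3 (0.0631), which leaves 1 member higher. In those fits its log2 fold change stayed between 0.33 and 0.40.

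In SCC-15 the picture was mixed. Of the 29 members, 11 fell, 6 rose and 12 were not called, while 14.3% of all tested genes were called lower and 13.4% higher, 27.7% in all. The median log2 fold change was -0.04 over the members and 0.00 over all tested genes, and it was -0.09 over the enzymes. The 18 enzymes together reached 916 ± 23.1 CPM in shTTK libraries and 1009 ± 8.32 CPM in shControl libraries (SD, n = 3 each). Without both SCC-15 libraries numbered 1, the counts were 8 lower and 5 higher. The calls lost there were FDPS (adjusted p = 0.271), HSD17B7 (0.0784), TMEM97 (0.0955) and SOAT1 (0.151).

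HMGCS1 changed most among the enzymes of SCC-15. It stood at 41.0, 40.2 and 44.9 CPM in shTTK libraries, against 78.5, 72.4 and 66.1 CPM in shControl libraries (-0.78 ± 0.0560; edgeR adjusted p = 1.75e-17). The other mevalonate enzymes that fell were IDI1 (-0.33) and MVK (-0.24), with 0.00150 as the larger edgeR adjusted p. FDPS rose slightly, with 125 ± 6.19 CPM in shTTK and 116 ± 4.35 CPM in shControl libraries (SD, n = 3 each; log2 fold change 0.11; edgeR adjusted p = 0.0410). That call was lost without shTTK library 1 (adjusted p = 0.249), control library 1 (0.0573) or control library 3 (0.216), with DESeq2 (0.0522) and with limma-voom (0.0622). MVD (-0.05) and PMVK (0.07) were not called. ACAT2 was barely detected, with 7, 10 and 11 counts in shTTK libraries and 4, 6 and 7 counts in shControl libraries, and was not called (edgeR adjusted p = 0.239).

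Of the 11 squalene and sterol enzymes, 5 fell and 1 rose in SCC-15. MSMO1 stood at 11.3, 13.5 and 14.4 CPM in shTTK libraries, against 20.3, 19.5 and 18.6 CPM in shControl libraries (-0.57 ± 0.0864; edgeR adjusted p = 1.4e-07). SQLE averaged 45.4 ± 0.978 CPM in shTTK and 60.8 ± 3.09 CPM in shControl libraries (SD, n = 3 each; log2 fold change -0.42). Decreases were smaller for FDFT1 (-0.27), LSS (-0.25) and HSD17B7 (-0.29), and the largest edgeR adjusted p among these 5 was 0.0231. The call of HSD17B7 was lost without shTTK library 1 (adjusted p = 0.0592) or 2 (0.0716), without control library 2 (0.0803) or 3 (0.0537), and with no count filter (0.0701). TM7SF2 went the other way, at 4.72, 5.41 and 4.86 CPM in shTTK libraries, against 3.26, 2.58 and 2.87 CPM in shControl libraries (0.78 ± 0.153; edgeR adjusted p = 2.87e-05). Its groups did not overlap, at the lowest mean level of the 11 enzymes in SCC-15. DHCR7 stood at 128, 122 and 115 CPM in shTTK libraries, against 130.0, 122 and 123 CPM in shControl libraries, and was not called (-0.04 ± 0.0393; edgeR adjusted p = 0.506). CYP51A1 (0.11), NSDHL (0.11) and SC5D (-0.12) were not called either. EBP was not called (0.09; edgeR adjusted p = 0.0786), though its groups did not overlap. It passed the threshold with RLE size factors (0.10; edgeR adjusted p = 0.0455).

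The SREBP genes split in SCC-15. SREBF1 stood at 1318, 1256 and 1209 CPM in shTTK libraries, against 1069, 1054 and 1045 CPM in shControl libraries (0.26 ± 0.0303; edgeR adjusted p = 8.73e-11). SREBF2 stood at 225, 205 and 201 CPM in shTTK libraries, against 266, 255 and 264 CPM in shControl libraries (-0.32 ± 0.0342; edgeR adjusted p = 3.86e-12). Thus SREBF1 rose and SREBF2 fell, each with no overlap between groups. INSIG1 was not called (-0.01 ± 0.0537; edgeR adjusted p = 0.947), and its 3 control libraries spread widely, at 85.4, 70.1 and 68.5 CPM. SCAP was not called (edgeR adjusted p = 0.984).

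NPC1 and MYLIP rose in SCC-15. NPC1 stood at 58.8, 54.5 and 53.5 CPM in shTTK libraries, against 45.8, 47.1 and 45.3 CPM in shControl libraries (0.27 ± 0.0552; edgeR adjusted p = 5.78e-05). MYLIP averaged 17 ± 1.82 CPM in shTTK and 12.6 ± 1.44 CPM in shControl libraries (SD, n = 3 each; 0.43; edgeR adjusted p = 0.000276). TMEM97 (-0.17) and SOAT1 (-0.11) fell by little, with edgeR adjusted p = 0.00778 and 0.0405. The call of TMEM97 was lost without control library 2 (adjusted p = 0.0743). That of SOAT1 was lost without any 1 of 4 SCC-15 and 3 CAL-27 libraries (0.0507 to 0.380) and under RLE size factors, DESeq2, limma-voom and no count filter (0.0593 to 0.169). STARD4 was not called (0.03). ABCG1 rose, at 3.03, 3.86 and 2.29 CPM in shTTK libraries, against 2.29, 1.15 and 1.35 CPM in shControl libraries (0.93 ± 0.244; edgeR adjusted p = 0.00184), with the lowest shTTK and the highest control library almost level. ABCA1 had 3 to 15 counts per SCC-15 library and was not called (-0.07 ± 0.414).

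Comparing the calls of the lines, 11 members fell in both: HMGCS1, MVK, IDI1, FDFT1, SQLE, LSS, MSMO1, HSD17B7, SREBF2, TMEM97 and SOAT1. Of all tested genes, 4.01% fell in both lines. ABCG1 rose in both, as 2.87% of all tested genes did. The 3 members FDPS, SREBF1 and NPC1 rose in SCC-15 and fell in CAL-27, a class that held 2.90% of all tested genes. ACAT2, MVD, CYP51A1, NSDHL, EBP, SC5D, DHCR7, INSIG1 and STARD4 fell in CAL-27 and were not called in SCC-15, where TM7SF2 and MYLIP rose without a call in CAL-27. The class of genes that fell in CAL-27 alone held 8.77% of all tested genes, and the class that rose in SCC-15 alone 7.67%. ABCA1 was called higher in CAL-27 alone (6.79% of all tested genes), and PMVK and SCAP were called in neither line (56.7%).

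**Figure D2:**
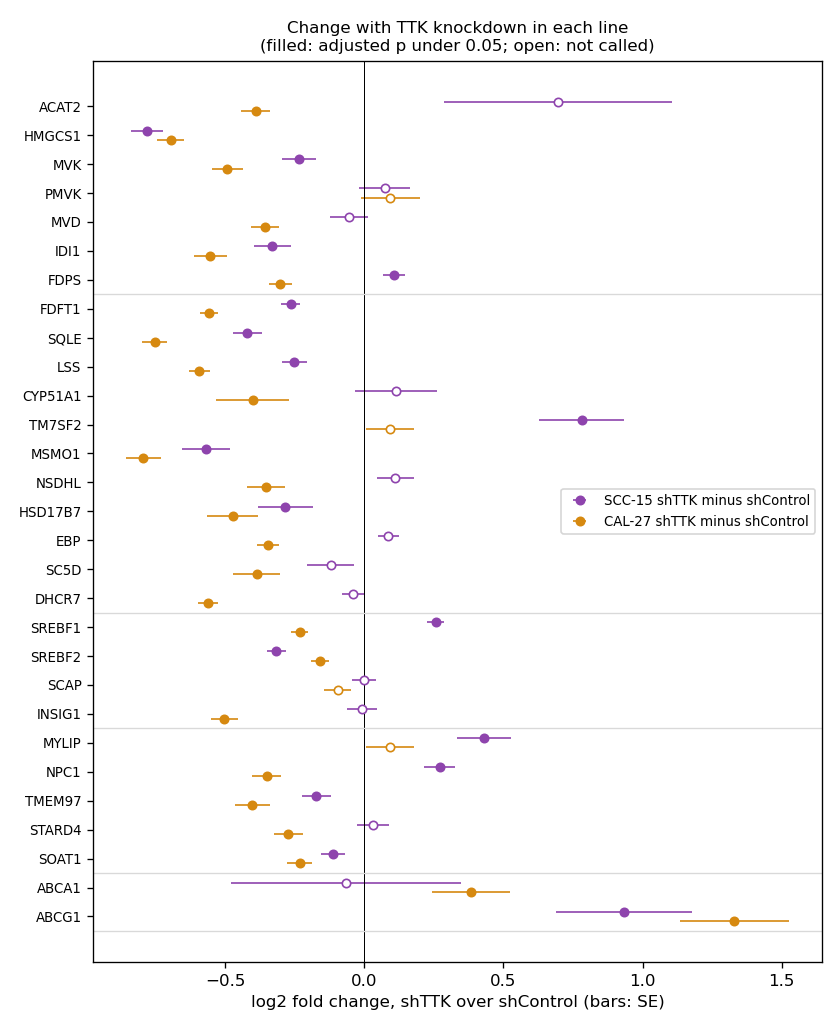
Log2 fold change with TTK knockdown for each of the 29 members, in pathway order from top to bottom, with SCC-15 drawn above CAL-27, bars for the standard error and filled points for an adjusted p under 0.05. The CAL-27 points of 23 members lie filled left of 0, and the SCC-15 points of SREBF1, NPC1 and FDPS lie filled right of 0.

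The difference itself (change in SCC-15 minus change in CAL-27) was called for 19 members. It was positive in 18 and negative in 1, against 13.3% positive and 12.1% negative among all tested genes, 25.4% in all. Its median was 0.30 over the members and 0.00 over all tested genes. Without both SCC-15 libraries numbered 1, the difference was positive in 17 members and negative in 1. The knockdown of TTK itself was deeper in SCC-15, by a difference of -0.67 ± 0.0930 (edgeR adjusted p = 2.37e-08), and how far that bears on these differences was not tested.

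Some members with a called difference fell in CAL-27 and were not called in SCC-15. DHCR7 differed by 0.52 ± 0.0525 (edgeR adjusted p = 8.18e-13), with log2 fold changes of -0.04 in SCC-15 and -0.56 in CAL-27. INSIG1 differed by 0.50 ± 0.0722 (edgeR adjusted p = 1.08e-06), EBP by 0.43 ± 0.0546 (edgeR adjusted p = 9.07e-10) and NSDHL by 0.47 ± 0.0949 (edgeR adjusted p = 6.8e-05). The genes that turned in opposite directions also differed: NPC1 by 0.62 ± 0.0749 (edgeR adjusted p = 1.8e-10), SREBF1 by 0.49 ± 0.0436 (edgeR adjusted p = 1.83e-15) and FDPS by 0.41 ± 0.0577 (edgeR adjusted p = 2.24e-08). FDFT1, SQLE and LSS fell in both lines, less in SCC-15, with differences of 0.29, 0.33 and 0.34. SREBF2 was the exception, falling more in SCC-15 (-0.16 ± 0.0472; edgeR adjusted p = 0.00763); its call was lost without SCC-15 shTTK library 3 (adjusted p = 0.0588), which leaves 0 members with a negative difference.

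HMGCS1 was not shown to differ between the lines (-0.09 ± 0.0748; edgeR adjusted p = 0.457), nor was ABCG1 (-0.40 ± 0.319; edgeR adjusted p = 0.413) or MSMO1 (0.23 ± 0.107; edgeR adjusted p = 0.117). MSMO1 passed the threshold without the SCC-15 libraries numbered 1 (adjusted p = 0.0167), without SCC-15 shTTK library 1 alone (0.0307) and without CAL-27 shTTK library 3 (0.0331). IDI1 (0.22; edgeR adjusted p = 0.0561) passed without the SCC-15 libraries numbered 1 (0.0209), without SCC-15 shTTK library 1 (0.0420), SCC-15 control library 1 (0.0437) or CAL-27 control library 1 (0.0185), and with RLE size factors (0.0460). The other members without a called difference were PMVK (-0.02), HSD17B7 (0.19), SC5D (0.26), SCAP (0.09), SOAT1 (0.12) and ABCA1 (-0.45), of which SC5D passed without SCC-15 shTTK library 2 (0.0418) and SOAT1 without CAL-27 control library 1 (0.0452). The called differences of ACAT2 (1.09 ± 0.413; edgeR adjusted p = 0.0464), CYP51A1 (0.52 ± 0.196; edgeR adjusted p = 0.0423) and MYLIP (0.34 ± 0.130; edgeR adjusted p = 0.0463) lay near the threshold and were lost with DESeq2 (adjusted p = 0.0543, 0.0607 and 0.0704). Leaving out single libraries also ended them: 8 libraries for ACAT2 (adjusted p up to 0.169), 9 for CYP51A1 (up to 0.135) and 8 for MYLIP (up to 0.242). Those of MVD, MVK and TMEM97 were lost without single libraries: MVD without SCC-15 shTTK library 1 (0.0647) or both SCC-15 libraries numbered 1 (0.110), MVK without SCC-15 control library 3 (0.101) or CAL-27 shTTK library 1 (0.0756), and TMEM97 without any 1 of 6 libraries (0.0510 to 0.125).

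The lines also differed without knockdown. In control libraries, 22 members were lower and 5 higher in SCC-15 than in CAL-27, in a comparison where 38.2% of all tested genes were lower and 37.8% higher, 76% in all. The 22 include ACAT2 and ABCA1, which passed the count filter only through their CAL-27 libraries. The median log2 difference was -0.91 over the members and -0.01 over all tested genes. DHCR7 averaged 125 ± 4.29 CPM in SCC-15 and 460.3 ± 4.27 CPM in CAL-27 controls (SD, n = 3 each), a log2 difference of -1.88. MSMO1 averaged 19.4 ± 0.849 CPM in SCC-15 and 80.9 ± 0.326 CPM in CAL-27 controls (-2.06). TM7SF2 averaged 2.90 ± 0.339 CPM in SCC-15 and 24.7 ± 1.08 CPM in CAL-27 controls (-3.09). All 3 were lower in each SCC-15 control library than in each CAL-27 control library, and the largest edgeR adjusted p of the 3 was 3.99e-37.

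The other mevalonate enzymes lower in SCC-15 controls had log2 differences of -1.96 for MVD, -0.95 for IDI1, -0.88 for HMGCS1, -0.73 for MVK and -0.27 for FDPS. Of the sterol enzymes, LSS (-1.79), FDFT1 (-1.45), SQLE (-1.13), CYP51A1 (-0.95), HSD17B7 (-0.54) and NSDHL (-0.23) were lower too. INSIG1 (-1.14), SREBF2 (-0.91), NPC1 (-0.95), STARD4 (-0.88), MYLIP (-0.80), ABCG1 (-0.96) and ABCA1 (-4.26) followed the same direction. For ABCA1 the size is imprecise, from -4.90 to -3.84 over the alternatives. Since ABCA1 passed the count filter only through its CAL-27 libraries, its call is no independent support for that gap. The 5 members higher in SCC-15 controls were SREBF1, SCAP, TMEM97, PMVK and EBP. SREBF1 averaged 1056 ± 12.5 CPM in SCC-15 and 463 ± 15.8 CPM in CAL-27 controls (SD, n = 3 each; 1.19; edgeR adjusted p = 2.64e-48). The differences of the others were 0.93 for SCAP, 0.88 for TMEM97, 0.69 for PMVK and 0.28 for EBP. SC5D (-0.15) and SOAT1 (-0.07) were not called, but SOAT1 passed the threshold without SCC-15 control library 2 (-0.11; adjusted p = 0.0376) or CAL-27 control library 1 (-0.11; adjusted p = 0.0305).

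ACAT2 was nearly silent in SCC-15. It had 4, 6 and 7 counts in SCC-15 control libraries, against 1817, 1964 and 1582 counts in CAL-27 control libraries, a log2 difference of -8.27 (edgeR adjusted p = 1.46e-64). With so few SCC-15 counts the size is imprecise, and it ran from -8.46 to -8.07 over the alternatives. ACAT2 passed the count filter only through its CAL-27 libraries, so the p-value is no independent support for the gap. ACAT2 lies on chromosome 6, 159760328 to 159779055, plus strand (GRCh38, GENCODE 29), between WTAP and TCP1, and 52.3% of its annotated exon bases overlap genes of the opposite strand, SOD2 and SOD2-OT1 among them. The adjoining genes WTAP, TCP1 and MRPL18 were expressed in both lines. WTAP averaged 83.9 ± 2.03 CPM in SCC-15 and 120.6 ± 5.21 CPM in CAL-27 controls (SD, n = 3 each). TCP1, a subunit of the cytosolic chaperonin, averaged 545 CPM in SCC-15 and 388 CPM in CAL-27 controls. MRPL18, a mitochondrial ribosomal protein, averaged 104 CPM in SCC-15 and 85 CPM in CAL-27 controls. SOD2, the mitochondrial superoxide dismutase, averaged 75.3 ± 4.55 CPM in SCC-15 and 1316 ± 28.2 CPM in CAL-27 controls (SD, n = 3 each). This SOD2 entry thus differed between SCC-15 and CAL-27 in the same direction as ACAT2. However, a SOD2 gene is annotated that ends at 159745186, before ACAT2, and another that ends at 159762529, within it. The other SOD2 entry held 0 to 9 counts per library, and which entry overlaps ACAT2 was not resolved. SOD2-OT1 held at most 1 count per library. TCP1, higher in SCC-15, overlaps 9.2% of the ACAT2 exon bases on the opposite strand. Whether reads of the overlap were counted for the wrong strand was not tested.

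**Figure D3:**
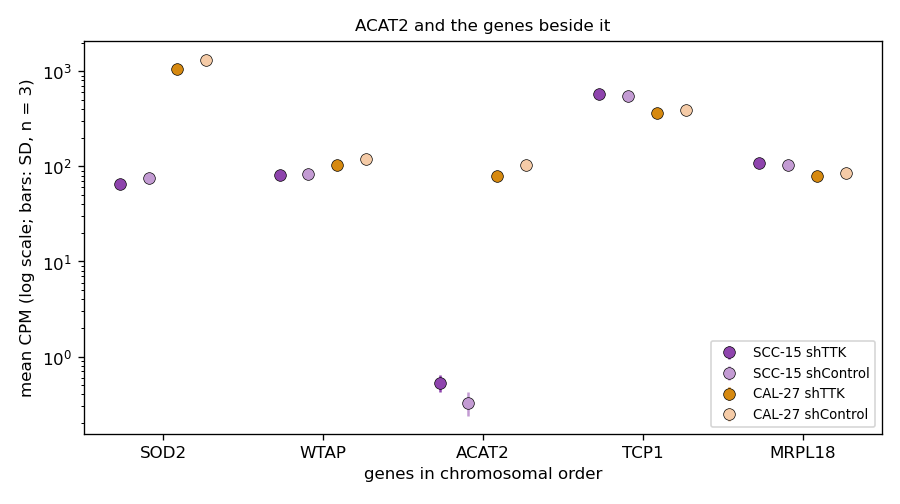
Mean level of ACAT2 and the genes beside it on chromosome 6, in CPM on a log axis, with bars for the SD over 3 libraries, for SCC-15 shTTK, SCC-15 shControl, CAL-27 shTTK and CAL-27 shControl from left to right at each gene. ACAT2 lies under 1 CPM in both SCC-15 groups. There SOD2 and WTAP also lie under their CAL-27 levels, while TCP1 and MRPL18 lie above theirs.

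Per length of annotated exon, which allows a comparison between genes, the order of the members differed between lines. In SCC-15 controls SREBF1 ranked first, with 132 CPM per kilobase, followed by EBP with 62.2, SREBF2 with 34.6, FDFT1 with 32.6, FDPS with 31.2 and DHCR7 with 30.1. In CAL-27 controls DHCR7 led with 111 CPM per kilobase, followed by FDFT1 with 89.2, SREBF2 with 65.0, SREBF1 with 57.7, EBP with 51.1 and INSIG1 with 45.1. At the low end stood ABCA1 with 0.04 and ACAT2 with 0.08 CPM per kilobase in SCC-15, and ABCG1 with 0.51 and ABCA1 with 0.85 CPM per kilobase in CAL-27.

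**Figure D4:**
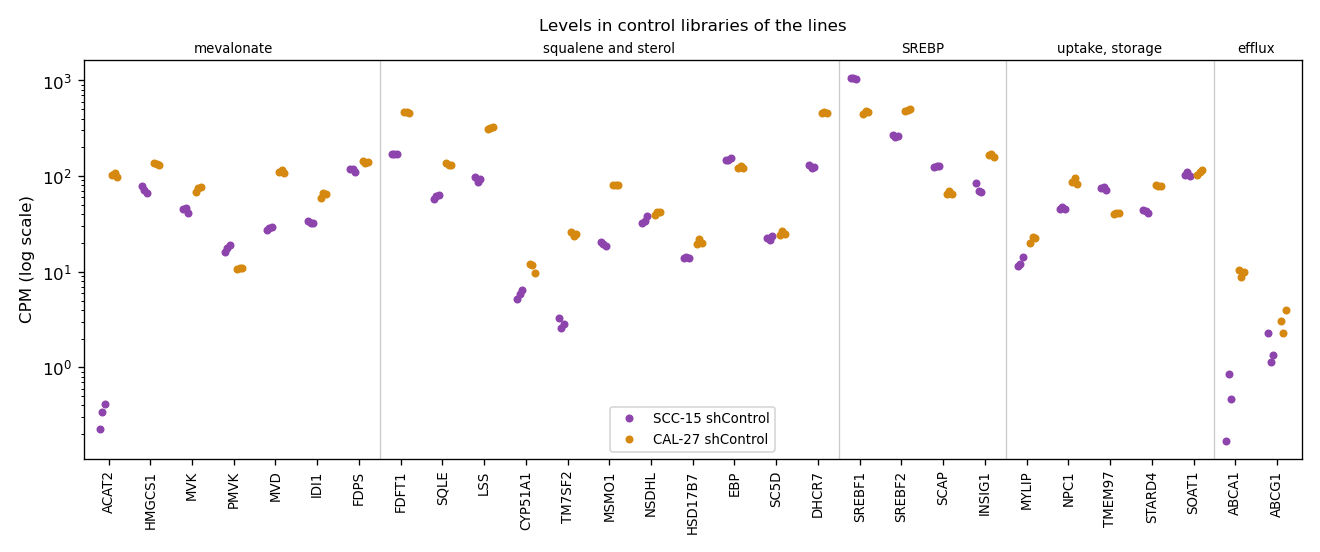
Level of the 29 members in the control libraries, in CPM on a log axis, with SCC-15 left of CAL-27 at each member, points for libraries and members in pathway order. Values compare libraries for 1 member and not members with each other. SREBF1, SCAP, TMEM97, PMVK and EBP lie higher in SCC-15, and ACAT2 shows the widest gap.

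Genes of related pathways outside the 29 also fell in CAL-27, fatty acid genes among them. Of 61 further genes in 4 lists, 56 were tested, and 22 fell and 5 rose in CAL-27, where 15.7% of all tested genes fell and 11.6% rose. The fatty acid genes controlled by SREBP fell in 12 of 18, with 0 higher and a median log2 fold change of -0.22. FASN, fatty acid synthase, averaged 1083 ± 13.1 CPM in shTTK and 1557 ± 27.7 CPM in shControl libraries (SD, n = 3 each; log2 fold change -0.52; edgeR adjusted p = 1.45e-26). SCD, the stearoyl-CoA desaturase, changed by -0.46 and LPIN1, a phosphatidate phosphatase, by -0.76. Of 18 further sterol and isoprenoid genes, 8 fell and 1, RNF139, rose (0.22), and the median was -0.12. LBR, the lamin B receptor with sterol reductase activity like that of TM7SF2, averaged 73.3 ± 3.03 CPM in shTTK and 113 ± 3.54 CPM in shControl libraries (-0.63; edgeR adjusted p = 4.66e-21). ERG28, a scaffold of sterol demethylation (-0.38), and ERLIN1, an endoplasmic reticulum membrane protein (-0.23), fell as well. Of 14 further transport genes, 1 fell and 3 rose, those higher being LRP1, a large endocytic receptor (1.00), GRAMD1A, a sterol transfer protein (0.32), and CAV1, the caveola protein (0.26), around a median of 0.01. The call of GRAMD1A was lost without shTTK library 2 (adjusted p = 0.0815) or control library 3 (0.150). Of 6 LXR receptors and further targets, PLTP, the phospholipid transfer protein, rose (0.92; edgeR adjusted p = 1.9e-10) and 1 other gene fell, with a median of 0.04.

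In SCC-15 the same 56 genes gave 16 lower and 11 higher, where 14.3% of all tested genes fell and 13.4% rose. Of the fatty acid genes, 7 fell and 3 rose, and the median log2 fold change was -0.05. ACACA, acetyl-CoA carboxylase, averaged 255 ± 6.03 CPM in shTTK and 334 ± 4.84 CPM in shControl libraries (SD, n = 3 each; -0.39; edgeR adjusted p = 8.58e-17), and ELOVL6, a fatty acid elongase (-0.56), and SCD (-0.20) were among the others that fell. ACSS2, which activates acetate (0.24), ELOVL5 (0.18) and TECR (0.10) rose. MBTPS2, a Golgi protease that releases active SREBP, averaged 37.0 ± 2.30 CPM in shTTK and 56.3 ± 1.04 CPM in shControl libraries (-0.61; edgeR adjusted p = 1.74e-13). Of the other 17 sterol and isoprenoid genes, ERLIN1 (-0.27) and LBR (-0.17) fell, and ERG28 (0.18) and NUS1 (0.13) were among the 4 that rose. The median over all 18 was -0.08. Of the transport genes, 6 fell and 4 rose, with a median of -0.16. SCARB1, the receptor for high-density lipoprotein, averaged 276 ± 5.60 CPM in shTTK and 348 ± 6.60 CPM in shControl libraries (-0.33; edgeR adjusted p = 3.99e-14), and NCEH1 (-0.23) and CAV1 (-0.15) also fell. GRAMD1A (0.24), OSBPL2 (0.14) and LIPA, the lysosomal acid lipase (0.12), rose. Of the 6 genes of the LXR list 0 were called by edgeR (1 at an unadjusted p under 0.05), with a median of 0.03. Among the differences between lines, 17 of the 56 were called positive and 10 negative, against 13.3% and 12.1% of all tested genes. The SCC-15 count of higher genes was 6 without the SCC-15 libraries numbered 1, where the named calls lost were TECR (adjusted p = 0.0696), ERG28 (0.0530), GRAMD1A (0.0651) and LIPA (0.0731). Leaving out single SCC-15 libraries ended the calls of TECR (shTTK 1 and 2, control 2 and 3; 0.0562 to 0.115), ERG28 (shTTK 1 and control 3; 0.0588 and 0.132), NUS1 (shTTK 1 and control 2; 0.0661 and 0.119) and LIPA (control 3; 0.0702).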

How the data were processed

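Polyadenylated RNA of 12 libraries was sequenced as paired ends of 150 bases, from strand-specific libraries per the labels' protocols. The authors deposited 1 table of raw counts per gene, without normalization. The submitters' processing notes name Trim Galore 0.6.6, STAR 2.7.7a, featureCounts 2.0.1 and hg38. Neither the annotation release, the strand setting nor the handling of multimapping reads is stated in the sources used here, so genes with overlapping or near-identical copies are uncertain; pseudogene lines of HSD17B7, FDPS, CYP51A1 and TMEM97 held at most 23 counts. Genes were kept with filterByExpr, scaled by TMM and fitted with edgeR 4.0.16 (R 4.3.3, limma 3.58.1) as 4 group means over 12 libraries. P-values were two-sided and adjusted over all 16946 genes of a contrast. Standard errors are the log2 fold change over the root of F, and means are TMM-scaled CPM. All 29 members are named, and up to 3 called genes per list, direction and line; some genes this takes are not reported here. The members and lists were chosen with earlier results of these data known. Alternatives were RLE size factors, DESeq2 1.42.0, limma-voom, no count filter, each line alone, a minimum of 1 CPM in 3 libraries, the replicate block, each library left out and, chosen after seeing the data, the SCC-15 libraries numbered 1 left out. The steps were tested on simulated data.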

Additional observations from a re-analysis of the deposited data

Results flagged for a closer look

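The change with TTK knockdown differed between SCC-15 and CAL-27 for 19 members by the test of the difference itself (edgeR adjusted p under 0.05), given here as SCC-15 minus CAL-27 on the log2 scale. Among the mevalonate enzymes these were ACAT2 (1.09), FDPS (0.41), MVD (0.30) and MVK (0.26). Among the squalene and sterol enzymes they were TM7SF2 (0.69), CYP51A1 (0.52), DHCR7 (0.52), NSDHL (0.47), EBP (0.43), LSS (0.34), SQLE (0.33) and FDFT1 (0.29). In the SREBP system they were INSIG1 (0.50), SREBF1 (0.49) and SREBF2 (-0.16). In uptake and transport they were NPC1 (0.62), MYLIP (0.34), STARD4 (0.31) and TMEM97 (0.23). The value of ACAT2 rests on 4 to 11 counts per SCC-15 library, with log2 fold changes of 0.70 in SCC-15 and -0.39 in CAL-27. ACAT2 passed the count filter only through its CAL-27 libraries.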

How the results depend on the processing

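No called result changed direction under the alternatives run. Members called lower in CAL-27 numbered 22 to 24 and members called higher 1 to 2 when single libraries were left out. In SCC-15 the ranges were 8 to 11 lower and 5 to 6 higher, and for the difference 14 to 19 positive and 0 to 1 negative. The further pathway genes called higher in SCC-15 numbered 6 to 11 without single libraries and 6 without the SCC-15 libraries numbered 1. DESeq2 gave 2 higher and 23 lower members in CAL-27, 5 and 10 in SCC-15, and 15 and 1 for the difference; limma-voom gave the same counts. The replicate numbers did not pair the samples: same-numbered libraries correlated by -0.0396 to 0.0171 in their deviations from the group means, and not every library correlated best with its own number. With the replicate block the counts were 2 higher and 23 lower in CAL-27, 6 and 11 in SCC-15, 17 and 1 for the difference, and 5 and 22 between control lines. Depth limits ACAT2 and ABCA1 in SCC-15, with at most 15 counts per library.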
